A study of Mus musculus with 27 samples.

Results

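Fc gamma receptors bind the constant part of IgG antibodies, and 9 genes of their signalling path were followed here: the receptor genes Fcgr1, Fcgr2b, Fcgr3 and Fcgr4, the signal adaptor Fcer1g, the kinases Syk, Fgr and Lyn, and the phosphatase Ptpn6. They were chosen by gene symbol from a table of 54532 genes, and each symbol matched 1 row. Mouse embryonic fibroblasts (MEFs) undergoing reprogramming to induced neurons (iNs) were profiled by bulk RNA-seq in 27 libraries, 3 for each of 3 genotypes on days 0, 2 and 4. The genotypes were WT, Per1-/- and Per2-/-, that is, mice with intact circadian period genes and mice with the Per1tm1Drw or the Per2tm1Drw allele in every cell. All 27 libraries, the day 0 ones included, came from cells transduced with the BAM genes, which encode neuronal transcription factors, in doxycycline-inducible lentiviruses together with the transactivator M2rtTA. The labels count days after transduction, whereas in the study's methods the viruses went on before day 0. The MEFs were primary cultures from pooled midgestation embryos of undetermined sex, with the head and heart removed, so a library is an average over all cell types of a culture and over several embryos. Nothing in the labels says whether replicates were separate cultures of one preparation, and p-values then measure the spread between these libraries only.

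The labels call the cells induced neurons on all 3 days. Summed over 10 fibroblast markers the level was 2307 to 5762 FPKM (fragments on a gene scaled to its exon length and to the size of its library), over 8 neuronal markers 28.2 to 189.8 FPKM, and over 12 macrophage markers 109 to 1663 FPKM. Depth was 15815013 to 24264097 fragments on genes per library. The FPKM of all genes summed to 333295 to 374624 on day 0 and to 261289 to 343225 on days 2 and 4, so levels of different days stand on different scales. The Per1 transcript was lower in the Per1-/- libraries by log2 differences of -0.50, -0.19 and -0.21 on days 0, 2 and 4, none of them past the threshold (limma adjusted p = 0.771, 0.999 and 0.933). The Per2 transcript was higher, not lower, in the libraries labelled Per2-/- than in WT, by 1.03, 0.82 and 0.68 on the same days (adjusted p = 0.00114, 0.0191 and 0.223), so that group is named by its label throughout. Whether the reads fall in the exons that the alleles alter was not tested. Replicate 3 of Per1-/- day 0 stood apart from the other day 0 libraries in myeloid transcripts: the mean log2 level of its 12 macrophage markers was 3.97 against 1.08 to 3.06 in the other 8. Some changes and calls over days of the followed genes are also given without this library, where stated. Other results over days that rest on it are given with it only. These include fits that hold the macrophage marker level as a term, calls in the marker and further gene lists, and receptor shares and ratios.

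Antibody-coated particles cluster Fc receptors on macrophages, neutrophils, mast cells and other blood cells. Src-family kinases such as Lyn and Fgr then phosphorylate a paired tyrosine motif, the ITAM, in the adaptor FcRγ (Fcer1g), to which Syk binds and passes the signal on to phagocytosis and cytokine release. FcγRIIb (Fcgr2b) carries the opposite motif, the ITIM, which recruits phosphatases, and SHP-1 (Ptpn6) is a phosphatase of ITIM-bearing receptors that dampens the same path. Macrophages are known to use the whole path.

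Of the receptor genes, 3 lie with the adaptor gene in a 275.7 kb stretch of chromosome 1 (GRCm38), in the order Fcgr2b (chr1:170958617-170976547, minus strand), Fcgr4 (chr1:171018920-171029761, plus strand), Fcgr3 (chr1:171051174-171064935, minus strand) and Fcer1g (chr1:171229572-171234365, minus strand). Fcgr1 lies apart at chr3:96282909-96293969 on the minus strand. The remaining genes are Syk (chr13:52583173-52648792, plus), Lyn (chr4:3678115-3813122, plus), Fgr (chr4:132974095-133001910, plus) and Ptpn6 (chr6:124720707-124738714, minus). The inhibitory and an activating receptor of the cluster are near copies outside the cell: the coding sequences of Fcgr2b and Fcgr3 were identical at 96.5% of 509 aligned positions, against 66.3% for Fcgr2b with Fcgr4 and 65.3% for Fcgr3 with Fcgr4. Their longest identical coding run is shown because short reads from it cannot be placed on one gene by sequence alone. It spans an exon junction in both genes and is 129 bases long, between positions 170966674 and 170968081 in Fcgr2b and between 171054167 and 171057792 in Fcgr3:
Run shared by Fcgr2b and Fcgr3: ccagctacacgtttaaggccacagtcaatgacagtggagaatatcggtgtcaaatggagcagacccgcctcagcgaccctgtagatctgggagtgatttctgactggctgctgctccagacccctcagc
Of all stretches of 100 bases in the Fcgr3 transcripts 2.54% also occurred in Fcgr2b, counting exact matches only. Fcgr3 had 65 to 1212 fragments per library and Fcgr2b 13 to 332, so misplaced fragments would weigh more on Fcgr2b. How many were misplaced was not tested. The share of stretches of 100 bases found in any other gene was 4.3% for Fcgr2b, 3.26% for Ptpn6 and 11.59% for Lyn, and 0 for the other 5 genes. Library strand was not kept by the kit, and an opposite-strand gene overlaps 2.7% of the exon bases of Fcgr2b (Gm38204), 6.1% of Lyn (Gm26857) and 7.0% of Ptpn6 (Gm20531), which cannot be told apart from them.

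The promoters of the 3 activating receptor genes are shown because they share a short run of letters close to the start site. GAGGAA is the core of the site of PU.1, the transcription factor of the macrophage lineage encoded by Spi1. The windows (RefSeq, GRCm38.p6) hold 300 bases around the annotated start, and the capitals mark GAGGAA on the opposite strand, which reads TTCCTC on the gene's strand.
Fcgr1 (chr3:96293920-96294219, minus strand): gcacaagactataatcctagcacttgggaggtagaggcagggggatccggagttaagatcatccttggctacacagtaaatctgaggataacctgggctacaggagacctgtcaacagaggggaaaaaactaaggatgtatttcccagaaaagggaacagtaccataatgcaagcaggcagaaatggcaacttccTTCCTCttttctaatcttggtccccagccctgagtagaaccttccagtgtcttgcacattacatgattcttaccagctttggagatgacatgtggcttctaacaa
Fcgr3 (chr1:171059354-171059653, minus strand): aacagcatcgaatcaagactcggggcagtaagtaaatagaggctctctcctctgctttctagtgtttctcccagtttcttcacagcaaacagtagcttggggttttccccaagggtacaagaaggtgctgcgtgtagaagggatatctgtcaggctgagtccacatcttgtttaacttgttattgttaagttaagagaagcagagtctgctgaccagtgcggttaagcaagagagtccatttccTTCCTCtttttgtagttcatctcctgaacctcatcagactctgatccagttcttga
Fcgr4 (chr1:171018676-171018975, plus strand): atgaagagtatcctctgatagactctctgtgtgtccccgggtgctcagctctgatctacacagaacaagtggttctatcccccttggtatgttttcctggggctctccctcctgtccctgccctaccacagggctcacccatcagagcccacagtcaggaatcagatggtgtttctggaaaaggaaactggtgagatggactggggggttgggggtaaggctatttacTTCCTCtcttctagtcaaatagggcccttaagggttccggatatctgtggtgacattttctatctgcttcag
The run lay 55 to 50 bases before the start of Fcgr1, 6 to 1 before the start of Fcgr3 shown here and 22 to 17 before that of Fcgr4. From the other annotated start of Fcgr3 it lay 15 to 10 bases before. Only the run of Fcgr4 continued to GAGGAAGT, which contains GAGGAA. Searched on both strands, GAGGAA was in 28.3% and GAGGAAGT in 3.2% of 32851 promoter windows of the same length. GAGGAA was also found once in the window of Fgr and in that of the other annotated start of Syk. It was not found in the windows of Fcgr2b, Fcer1g, Ptpn6 and the remaining start of Syk, and no window was matched for Lyn.

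Levels of the 9 genes differed widely. In WT cells on day 4 the adaptor Fcer1g was highest at 74.5 ± 10.9 FPKM (SD, n = 3), followed by Ptpn6 at 11.3 ± 1.27, Fcgr3 at 10.3 ± 3.85, Lyn at 6.58 ± 0.295, Syk at 3.18 ± 0.587, Fcgr1 at 2.20 ± 0.377, Fcgr4 at 0.494 ± 0.0525, Fcgr2b at 0.371 ± 0.212 and Fgr at 0.158 ± 0.0466. FPKM is per length, so genes can be set side by side. The libraries of Ptpn6 and Fcgr3, of Fcgr3 and Lyn, and of Fcgr4 and Fcgr2b overlapped in this order, whereas those of the other neighbours did not. Among the kinases, Fgr, a Src-family kinase of mature myeloid cells, was close to undetected with 0 to 20 fragments per library (0 to 0.232 FPKM). It fell under the filter for testing, a mean of 0.5 FPKM over the 27 libraries, which 14932 genes and the other 8 of the 9 passed. Fcgr4 rested on 2 to 37 fragments per library and Fcgr2b on 13 to 332, compared with 171 to 3139 for Fcer1g.

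**Figure D1:**
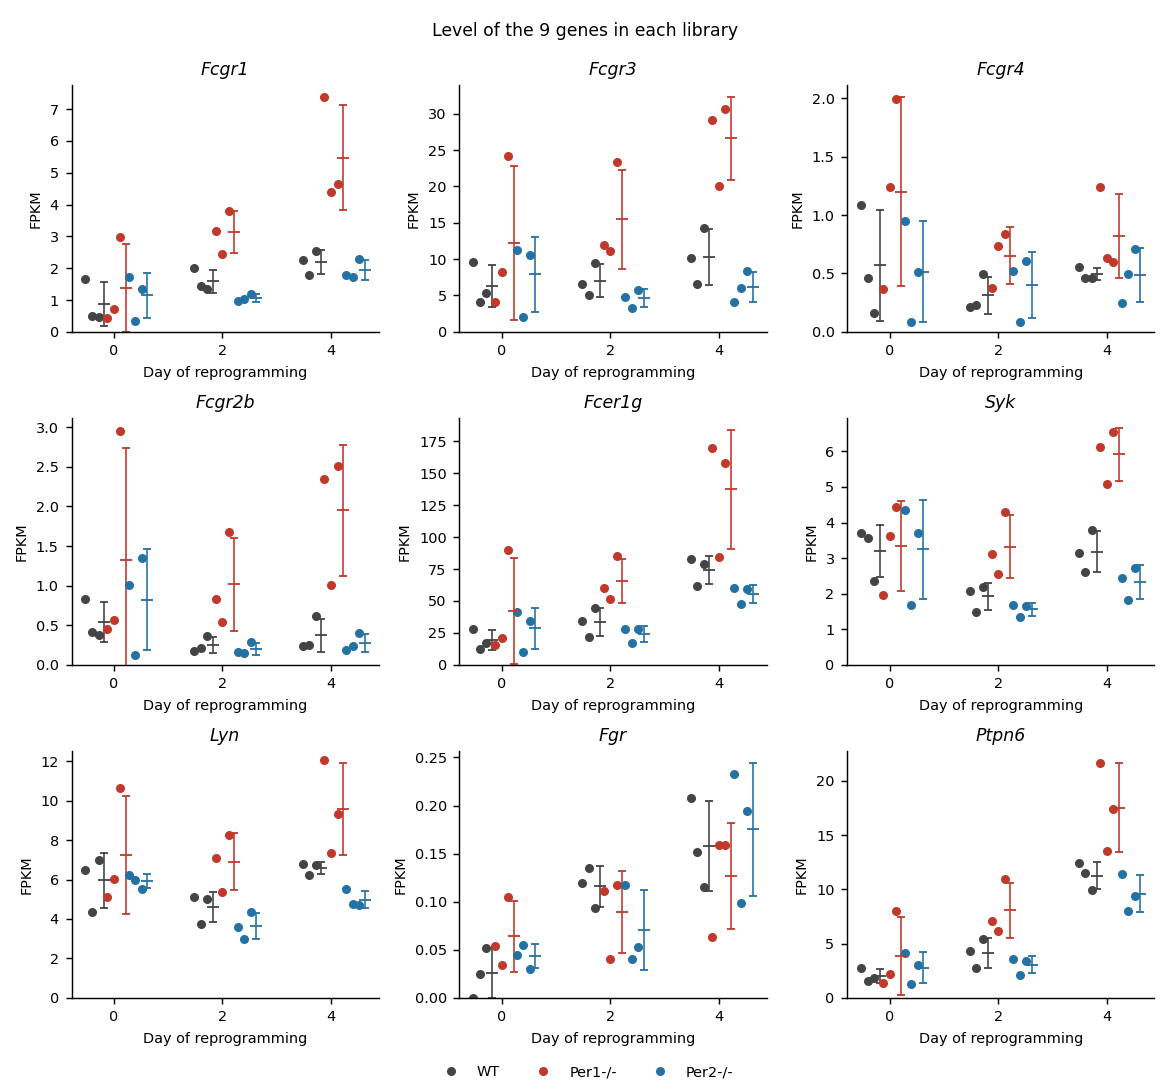
FPKM (linear axis) of each of the 9 genes in each library, by day and genotype; points are libraries and bars are the mean ± SD of 3. Fcer1g, Ptpn6 and Fcgr1 were higher on day 4 than on day 0, and Per1-/- day 0 replicate 3 is the highest of the 9 day 0 libraries for each gene.

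Over the 4 days, averaged over the genotypes, the adaptor, the phosphatase and the high-affinity receptor rose, and the other 5 tested genes did not pass the test with all libraries in the fit. Changes are log2 fold changes of FPKM + 0.1 from limma with their standard errors (SE), and a gene was called at a Benjamini-Hochberg adjusted p of at most 0.05 over all 14932 tested genes with a change of at least 0.58 in size. Averaged over the genotypes, 3 of the 8 tested genes were called higher on day 4 than on day 0, where 24.4% of all tested genes were called higher. The median change of the 8 was 0.43, and that of all tested genes -0.01. Where libraries of different days are said below to lie apart, the share of all tested genes that do so is not given. By day 4 limma called 6534, 6421 and 6018 of the 14932 genes in WT, Per1-/- and the group labelled Per2-/-. Separation over days therefore does not by itself set these genes apart from others. Because libraries are bulk, more cells of a type and more RNA per cell cannot be told apart in any of these values.

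Fcer1g, the adaptor shared by the activating Fc receptors, was at 28.3, 12.7 and 17.2 FPKM in WT, 15.7, 20.9 and 89.7 in Per1-/- and 41.1, 10.4 and 34.4 in those labelled Per2-/-, all on day 0. By day 4 it was at 82.6, 62.1 and 78.7 FPKM in WT, 170.2, 84.1 and 158 in Per1-/- and 59.9, 47.3 and 59.4 in the libraries labelled Per2-/-. Day 4 lay above day 0 in every library of WT and of the group labelled Per2-/-, and in Per1-/- only the high day 0 replicate 3 overlapped. The mean change was 1.75 (SE 0.302, adjusted p = 2.03e-05). Within genotypes it was 2.01 in WT (adjusted p = 0.00222) and 2.08 in Per1-/- (adjusted p = 0.00165), and both passed. On day 2 the range of all 9 libraries was 17.3 to 85.0 FPKM, and the mean change from day 0 of 0.61 did not pass (adjusted p = 0.0727), unless Per1-/- day 0 replicate 3 was left out (0.87, adjusted p = 0.00355).

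Ptpn6, the phosphatase SHP-1, had the largest change of the 8. Day 0 values were 2.70, 1.54 and 1.78 FPKM in WT, 1.40, 2.15 and 8.03 in Per1-/- and 4.09, 1.27 and 3.01 in the libraries labelled Per2-/-. They were on day 2 at 4.33, 2.71 and 5.46, 7.04, 6.18 and 11.0, and 3.57, 2.12 and 3.39 FPKM in the same order, and on day 4 12.4, 11.5 and 9.91, 21.6, 13.5 and 17.4, and 11.4, 7.98 and 9.43 FPKM. In every genotype the day 4 libraries lay above all its day 0 libraries. The mean change was 0.87 by day 2 (SE 0.266, adjusted p = 0.00561) and 2.29 by day 4 (SE 0.266, adjusted p = 9.15e-08). Ptpn6 was also the gene called in each genotype by day 4, with changes of 2.46 in WT (adjusted p = 9.48e-05), 2.52 in Per1-/- (adjusted p = 7.64e-05) and 1.88 in the libraries labelled Per2-/- (adjusted p = 0.00146).

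Fcgr1 encodes FcγRI, the receptor that binds single IgG molecules. It stood on day 0 at 1.66, 0.485 and 0.481 FPKM in WT, 0.439, 0.727 and 2.98 in Per1-/- and 1.73, 0.348 and 1.35 in the libraries labelled Per2-/-. By day 4 it had reached 2.27, 1.79 and 2.53 FPKM in WT, 7.38, 4.40 and 4.66 in Per1-/- and 1.80, 1.73 and 2.31 in the libraries labelled Per2-/-. The WT and Per1-/- libraries of day 4 cleared those of day 0, and the day 4 libraries labelled Per2-/- overlapped them at 1.73. The mean change was 0.88 by day 2 (SE 0.304, adjusted p = 0.013) and 1.55 by day 4 (SE 0.304, adjusted p = 8.93e-05). It was called in WT (1.43, adjusted p = 0.0223) and Per1-/- (2.29, adjusted p = 0.000755) by day 4.

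The low-affinity activating receptor Fcgr3 had 9.6, 4.12 and 5.34 FPKM in WT, 4.17, 8.30 and 24.1 in Per1-/- and 11.2, 1.99 and 10.6 in those labelled Per2-/-, all on day 0. On day 4 it had 10.1, 6.55 and 14.2 FPKM in WT, 29.2, 20.1 and 30.6 in Per1-/- and 4.16, 6.04 and 8.34 in the libraries labelled Per2-/-. Day 4 overlapped day 0 in each genotype. The mean change of 0.70 did not pass (SE 0.337, adjusted p = 0.0625), and that in Per1-/- did (1.46, adjusted p = 0.0341). Fcgr4, which binds IgG2 subclasses, ranged from 0.0845 to 2.00 FPKM on day 0 and from 0.250 to 1.24 on day 4, with overlap in every genotype and a mean change of -0.02 (adjusted p = 0.966).

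The inhibitory receptor Fcgr2b was at 0.826, 0.409 and 0.379 FPKM in WT, 0.455, 0.560 and 2.96 in Per1-/- and 1.01, 0.119 and 1.34 in those labelled Per2-/-, all on day 0. On day 2 it was at 0.173, 0.210 and 0.364 FPKM in WT, 0.830, 0.541 and 1.68 in Per1-/- and 0.166, 0.151 and 0.282 in the libraries labelled Per2-/-. By day 4 the values were 0.240, 0.256 and 0.616 FPKM in WT, 2.34, 1.01 and 2.52 in Per1-/- and 0.186, 0.239 and 0.406 in the libraries labelled Per2-/-. On the FPKM scale all WT libraries of day 2 lay under those of day 0, and the other genotypes overlapped. With libraries rescaled to a common sum, the WT means of days 0 and 2 were 0.448 and 0.285. The mean change was -0.71 by day 2 (SE 0.372, adjusted p = 0.0894) and -0.17 by day 4 (adjusted p = 0.678), and neither passed.

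The kinase Syk, which docks on the phosphorylated adaptor, was at 3.70, 3.57 and 2.37 FPKM in WT, 1.95, 3.62 and 4.43 in Per1-/- and 4.36, 1.69 and 3.70 in those labelled Per2-/-, all on day 0. On day 2 it was at 2.07, 1.5 and 2.20, 3.12, 2.56 and 4.29, and 1.68, 1.35 and 1.65 FPKM in the same order, and on day 4 at 3.16, 2.61 and 3.78, 6.12, 5.09 and 6.54, and 2.44, 1.81 and 2.72 FPKM. On the FPKM scale Syk was therefore low on day 2 in WT and in the libraries labelled Per2-/-, where every library lay under those of day 0. Separation of single libraries was taken on that scale only. With libraries rescaled to a common sum, Syk averaged 2.69 and 2.18 on days 0 and 2 in WT. In the group labelled Per2-/- it averaged 2.955 and 1.77. Its mean change by day 2 of -0.53 had an adjusted p of 0.0103 but was under the fold limit, the change within the group labelled Per2-/- was called lower (-0.92, adjusted p = 0.0145; background 16.8%), and that by day 4 was 0.16 (adjusted p = 0.401). In Per1-/- cells Syk was called higher by day 4 (0.88, adjusted p = 0.0166). Lyn, a Src-family kinase with both activating and inhibitory roles, ranged from 4.35 to 10.7 FPKM, 3.00 to 8.26 FPKM and 4.70 to 12.1 FPKM on days 0, 2 and 4. It was called lower by day 2 within the group labelled Per2-/- (-0.70, adjusted p = 0.0146), and its mean change by day 4 was 0.12 (adjusted p = 0.409). For Fgr, a fit of all 36800 genes above 0 gave a mean change of 0.81 by day 4 (SE 0.156, adjusted p = 0.000173), which was called, where 16.6% of genes were called higher.

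In counts, 3 of 8 genes were called higher on day 4 than on day 0 in WT cells (Fcer1g, Fcgr1 and Ptpn6; background 22.9%), 5 in Per1-/- (these and Fcgr3 and Syk; background 22.6%) and 1 in the libraries labelled Per2-/- (Ptpn6; background 21.6%). Without Per1-/- day 0 replicate 3, which enters the spread shared by all groups, Fcer1g was also called in the group labelled Per2-/- (1.17, adjusted p = 0.0188; background 21.8%). By day 2 the mean over genotypes gave 2 called higher (Fcgr1 and Ptpn6; background 22.2%), and from day 2 to day 4 it gave 3 called higher (Fcer1g, Ptpn6 and Syk; background 6.54%), with changes of 1.14, 1.42 and 0.69. Within genotypes the earlier step gave 2 called higher in Per1-/- (Fcgr1 at 1.52 and Ptpn6 at 1.39; background 20.8%) and 2 called lower in the group labelled Per2-/- (Syk and Lyn, above). In Per1-/- the step gave 3 without day 0 replicate 3, with Fcgr1 at 2.26, Ptpn6 at 2.11 and Fcer1g at 1.82 (adjusted p = 0.00218 for Fcer1g; background 20.6%), and 3 with same-numbered libraries of the genotype paired (Fcer1g at 1.06, adjusted p = 0.0244; background 21.5%). In WT it gave 0 by limma and with voom, with 2 of the 8 at an unadjusted p under 0.05 (background 20.8% higher and 19.7% lower), whereas without that Per1-/- library Ptpn6 was called higher in WT (1.00, adjusted p = 0.0172; background 21%) and Syk lower (-0.70, adjusted p = 0.0442; background 19.7%). Between days 2 and 4 Ptpn6 alone was called in the group labelled Per2-/- (1.65, adjusted p = 0.0357; background 2.32%), while limma called none in WT (background 1.62%) or Per1-/- (background 1.38%), where 4 and 2 of the 8 had an unadjusted p under 0.05 and voom called Ptpn6 in both. With same-numbered libraries paired, Ptpn6 was called in WT (1.46, adjusted p = 0.0188; background 3.08%) and Syk in Per1-/- (0.84, adjusted p = 0.0496; background 2.75%). Without Per1-/- day 0 replicate 3 the count in Per1-/- cells by day 4 became 7 of 8, all but Fcgr4 (background 22%), with Fcer1g at 2.85, Fcgr1 at 3.02, Fcgr3 at 2.14, Fcgr2b at 1.66, Lyn at 0.75, Ptpn6 at 3.23 and Syk at 1.11. The mean over genotypes then called 4, with Fcgr3 added at 0.93 (adjusted p = 0.0103; background 24.3%). No difference between genotypes in the change from day 0 was called for the 8 genes or for any tested gene by limma. With voom on fragments none of the 8 was called either, and 2 of the 8 (Syk and Lyn) had an unadjusted p under 0.05 for Per1-/- minus the group labelled Per2-/- by day 4. Day 0 and later FPKM sums differ, and rescaling every library to a common sum shifted the median change of all genes by day 2 from -0.01 to 0.36. By day 4 it shifted the median from -0.01 to 0.29 and the calls of all genes from 3644 higher and 3161 lower (21.2%) to 5203 higher and 1816 lower. Ptpn6, Fcer1g and Fcgr1 kept their direction and call on that scale and Fcgr3 was called too (1.00, adjusted p = 0.0102), whereas Fcgr2b and Fcgr4 turned from below to above 0 (0.08 and 0.23), which is less than the shift of the median.

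The genes did not move in step, and the proportions between them changed with the days. Fcgr3 made up most of the summed FPKM of the 4 receptors on each day, 76.8%, 74.9% and 73.9% on days 0, 2 and 4 (means of 9 libraries). The share of Fcgr1 was 9.81% ± 2.38 (SD, n = 9) at first, 17.3% ± 4.12 by day 2 and 18.5% ± 4.52 by day 4, and that of Fcgr2b was 7.08% ± 1.77, 3.55% ± 1.17 and 3.72% ± 1.52. The ratio of activating receptors (Fcgr1, Fcgr3 and Fcgr4 summed) to the inhibitory Fcgr2b was therefore higher later, at 14.4 ± 1.77 (SD, n = 3) in WT on day 0 and 38.0 ± 11.2 and 38.7 ± 13.5 on days 2 and 4. In the libraries labelled Per2-/- it was 14.4 ± 5.56, 31.3 ± 6.0 and 32.0 ± 3.54. Per1-/- cells started alike at 13 ± 4.61 and reached 20.6 ± 5.21 and 18.5 ± 5.75. On day 4 the Per1-/- libraries lay between 14.3 and 25.0 and all 6 others between 28.0 and 53.8, and on day 2 between 16.7 and 26.5 against 26.6 and 50.9, a gap of almost nothing. Fcgr2b rests on few fragments in many libraries and shares coding sequence with Fcgr3, and these ratios are descriptions without a test.

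The main receptor transcript was also lower relative to the adaptor on later days. Fcgr3 was 29.8% ± 5.75 of Fcer1g at first, 21.0% ± 2.95 by day 2 and 15.0% ± 5.14 by day 4 (SD, n = 9). In WT the day 0 values of 31.1% to 34.0% lay above the day 4 values of 10.5% to 18.1%, and in the libraries labelled Per2-/- 19.1% to 30.7% lay above 6.95% to 14.0%. In Per1-/- cells it was 26.6% to 39.8% on day 0 and 17.1% to 23.9% on day 4, so these ranges did not overlap either.

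**Figure D2:**
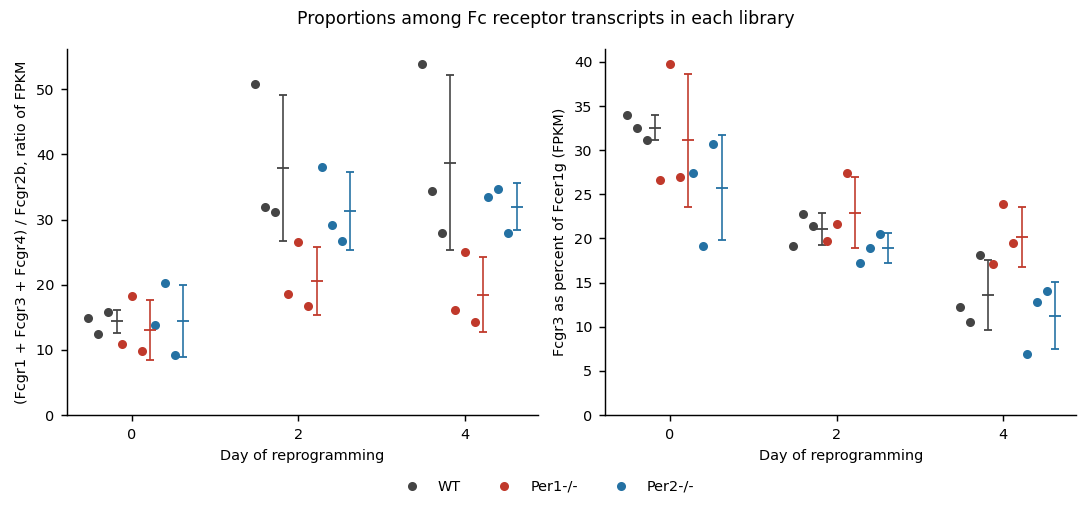
Left, FPKM of the activating receptors (Fcgr1, Fcgr3 and Fcgr4) divided by that of Fcgr2b in each library; right, Fcgr3 as a percent of Fcer1g; bars are the mean ± SD of 3 libraries. On day 4 the Per1-/- ratios (14.3 to 25.0) lie under all 6 others (28.0 to 53.8), and the share of Fcgr3 is lower on day 4 than on day 0 in each genotype.

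The transcripts that mark macrophages moved with most of these genes. The 12 macrophage markers were all tested, none was at 0, and 11 of 12 were called higher on day 4 than on day 0 in the mean of the genotypes (median change 2.10). Their summed level was 166 to 384 FPKM in WT, 157 to 814 in Per1-/- and 109 to 429 in those labelled Per2-/- at day 0, and 388 to 813, 822 to 1663 and 304 to 613 FPKM on day 4. Csf1r, the receptor of the macrophage growth factor, stood at 32.7 ± 5.72 FPKM in WT, 68.8 ± 12.6 in Per1-/- and 22.3 ± 3.54 in those labelled Per2-/-, all at day 4 (SD, n = 3). Adgre1 (F4/80) stood at 21.4 ± 3.05, 44.8 ± 8.58 and 16.0 ± 3.19 FPKM and Itgam (CD11b) at 1.78 ± 0.201, 3.42 ± 1.13 and 1.48 ± 0.309. Markers of neutrophils, mast cells, B cells and T and NK cells were low. The 8 neutrophil markers summed to 0 to 29 fragments per library, and the 7 mast cell markers to 11 to 77, with the tryptase genes Tpsb2 and Tpsab1 at 0 in all libraries. The 5 B cell markers summed to 0 to 27, and the 6 T and NK cell markers to 0 to 12, with Ncr1 at 0. The 4 platelet and megakaryocyte markers stood higher, at 132 to 784 fragments (4.85 to 37.4 FPKM) summed per library. The 4 dendritic cell markers summed to 55 to 292 fragments. Of the 4 platelet markers 3 were tested, with 1 called higher and 1 lower by day 4, and of the 4 dendritic cell markers 1 was tested and called higher.

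Among libraries of the same group, the receptors and the adaptor followed the macrophage marker mean about 1 for 1, and the kinases less so. The slopes come from a fit that also holds a mean for each of the 9 groups, so they describe differences within groups. With the mean log2 level of the 12 markers as a term in the fit, the slope per log2 unit of that mean was 1.23 (SE 0.13) for Fcgr2b, 1.17 (SE 0.0856) for Fcgr3, 1.08 (SE 0.0565) for Fcer1g, 1.04 (SE 0.209) for Fcgr4, 1.02 (SE 0.0999) for Fcgr1, 0.91 (SE 0.0807) for Ptpn6, 0.56 (SE 0.0735) for Syk and 0.32 (SE 0.0838) for Lyn. The median slope of all tested genes was -0.01. The 27 points share their libraries with the markers, so these slopes are descriptions.

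At equal macrophage marker level the picture over days was another. With that term, 4 of 8 genes were called lower on day 4 than on day 0 in the mean of the genotypes, Fcgr2b at -2.56 (adjusted p = 3.79e-07), Fcgr4 at -2.04 (adjusted p = 0.00101), Fcgr3 at -1.57 (adjusted p = 9.26e-07) and Syk at -0.91 (adjusted p = 9.63e-05), where 21.5% of all tested genes were called lower. By day 2 the same genes and Lyn were called lower (background 20.6%), at -1.86 for Fcgr2b, -1.41 for Fcgr4, -0.98 for Fcgr3, -1.05 for Syk and -0.65 for Lyn. Ptpn6, Fcer1g and Fcgr1, the 3 genes called higher without the term, were at 0.53, -0.34 and -0.42 by day 4 with it and were not called. In this limma fit 7 of the 8 genes had an unadjusted p under 0.05 by day 4. A gene not called may therefore still differ at equal marker level. For Ptpn6 the adjusted p was 0.0177, with a change under the limit of 0.58, and within the group labelled Per2-/- it was called higher with the term, by 0.66 from day 0 to day 4 (adjusted p = 0.00914; background 21.7%) and by 0.70 from day 2 to day 4 (adjusted p = 0.0365; background 2.32%). A plain difference from the marker mean assumes a slope of 1, and the genes given here had fitted slopes of 0.91 to 1.23. On that scale Fcer1g was at 2.22, 1.90 and 2.04 log2 units on days 0, 2 and 4, Ptpn6 at -1.03, -1.10 and -0.68, and Fcgr1 at -2.38, -2.43 and -2.76. Fcgr2b went from -2.76 to -4.40 and -4.87 and Fcgr3 from 0.47 to -0.35 and -0.77. The marker mean itself was 1.08 to 3.97 on day 0 and 3.45 to 5.41 on day 4, so the days share only a narrow range of it. Within groups it spread most on day 0, at 1.76 to 3.97 in Per1-/- and 1.08 to 3.06 in the group labelled Per2-/-. The widest later group was Per1-/- on day 2, at 3.72 to 4.50. Each gene's slope therefore rests mostly on day 0 libraries, Per1-/- day 0 replicate 3 among them, and is carried over to day 4. The fit with the term was not repeated without that library. Whether the marker genes changed per cell was not tested.

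**Figure D3:**
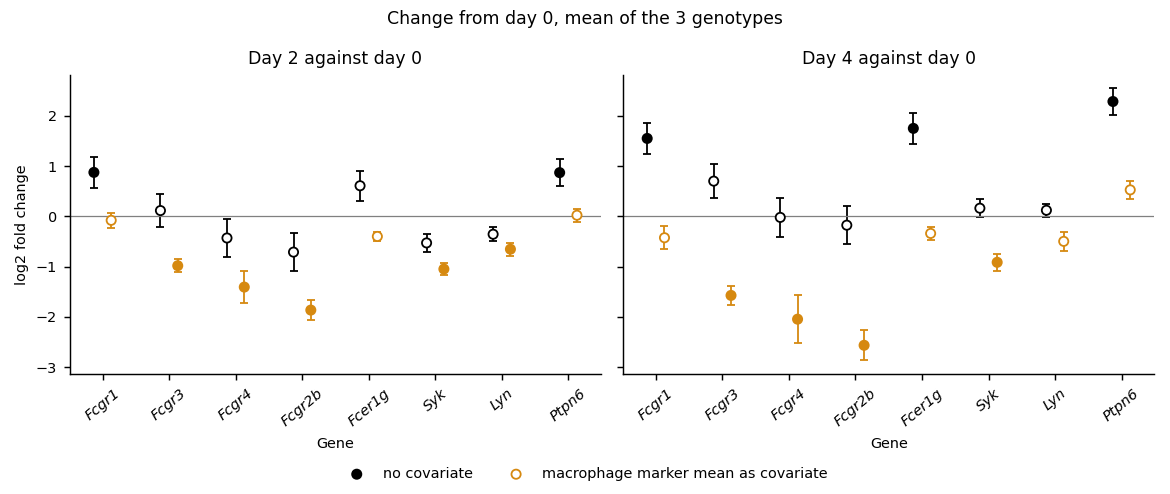
log2 fold change of FPKM + 0.1 from day 0 in the mean of the 3 genotypes for the 8 tested genes, without (black) and with (orange) the macrophage marker mean in the fit; error bars are the standard error from limma and filled points were called. By day 4 the genes called higher without the term were Fcgr1, Fcer1g and Ptpn6, and those called lower with it Fcgr3, Fcgr4, Fcgr2b and Syk.

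**Figure D4:**
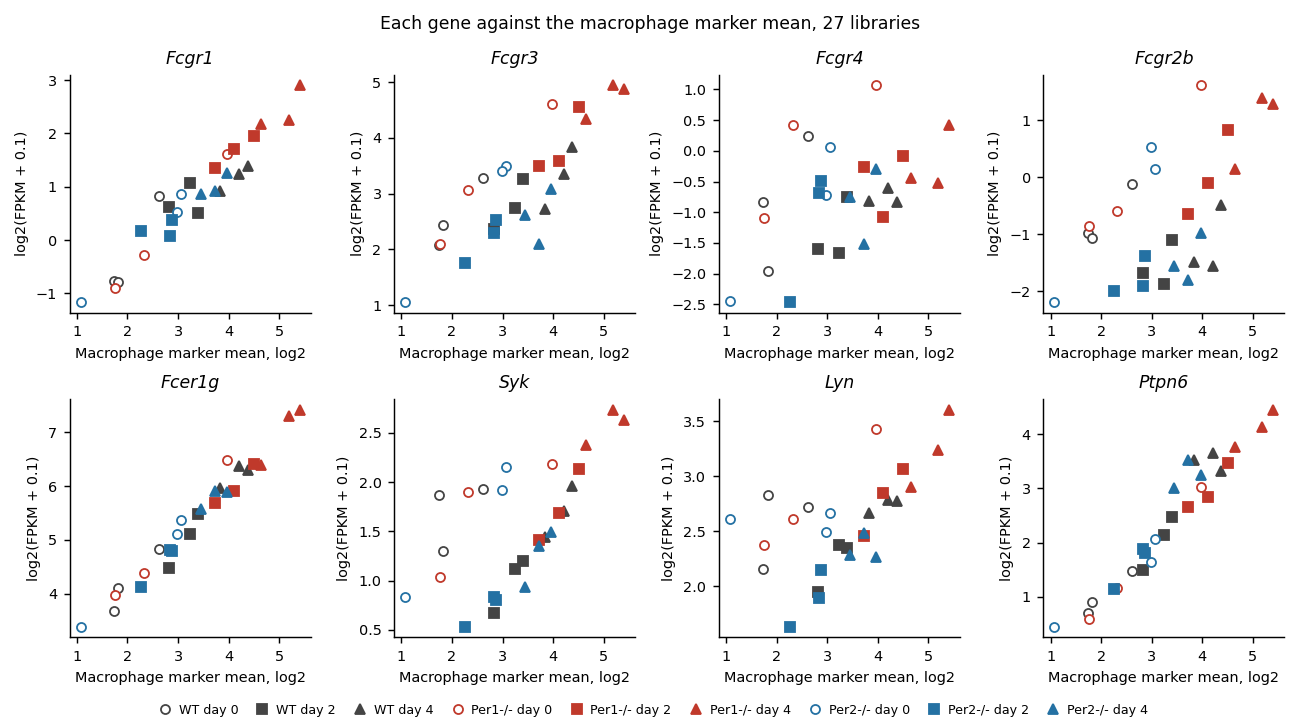
log2(FPKM + 0.1) of each tested gene against the mean log2 level of 12 macrophage markers, 1 point per library, by genotype (colour) and day (marker shape). Points of Fcer1g, Ptpn6 and Fcgr1 of the 3 days lie along one band, whereas Fcgr2b, Fcgr4, Fcgr3 and Syk of day 2 mostly lie under those of day 0 at the same marker level. On day 4 the marker mean starts at 3.45, and of the day 0 libraries only Per1-/- replicate 3 (3.97) reaches that level. The other day 0 libraries end at 3.06.

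The comparison of genotypes asks whether the period genes bear on these transcripts during reprogramming. On day 4, all 3 Per1-/- libraries lay above all 6 libraries of the other groups for 7 of the 8 tested genes, where 4.92% of all tested genes were so separated. On day 2 it was also 7 of 8 (background 3.07%), and on day 0 it was 0 of 8 (background 0.643%). Fcgr4 was the exception on both later days. Few of these differences passed the test over all genes. Per1-/- against WT and against the group labelled Per2-/- share their Per1-/- libraries, so they are not independent.

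Against the libraries labelled Per2-/- on day 4, Syk was called higher in Per1-/- cells by 1.32 (SE 0.305, adjusted p = 0.0435), the only call among the 8 (background 0.442%). The call was lost in 13 of 27 fits that each left out 1 library, over which the change ranged from 1.16 to 1.44. The differences of Fcgr2b (2.39, adjusted p = 0.0906), Fcgr3 (2.12, adjusted p = 0.0989), Lyn (0.90, adjusted p = 0.0724), Fcgr1 (1.42, adjusted p = 0.223), Fcer1g (1.25, adjusted p = 0.292), Ptpn6 (0.85, adjusted p = 0.456) and Fcgr4 (0.67, adjusted p = 0.739) did not pass. The median difference of the 8 was 1.28, and that of all tested genes -0.01. With voom on fragments, 4 of the 8 were called (Fcgr3, Lyn, Syk and Fcgr1; background 1.55%).

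Against WT on day 4 none of the 8 was called by limma (background 0.0201% higher) or with voom, and 5 had an unadjusted p under 0.05. The differences ran from 0.51 for Lyn to 2.12 for Fcgr2b (adjusted p = 0.529), with Fcgr3 at 1.41, Fcgr1 at 1.26, Syk at 0.88, Fcer1g at 0.83, Ptpn6 at 0.61 and Fcgr4 at 0.57, and for all 8 every Per1-/- library lay above every WT library (background 7.98%). On day 2 none was called either (background 0.0067% against WT and 0.0603% against the group labelled Per2-/-), with 3 and 7 of the 8 at an unadjusted p under 0.05, and voom called none. On day 0 none was called by limma or with voom (background 0.0134% for both comparisons) and none had an unadjusted p under 0.05. The day 0 differences were above 0 only with Per1-/- day 0 replicate 3 in the fit. Without it all genes but Fcgr4 were under 0, from -0.34 to -0.008 against WT. Against the group labelled Per2-/- they were then at -0.67 to -0.079. Fcgr4 stayed above 0, at 0.51 and 0.70. The group labelled Per2-/- and WT differed in no called gene of the 8 on any day, by limma or with voom, and none of the 8 had an unadjusted p under 0.05. Limma called only 1, 4 and 1 of all 14932 tested genes there on days 0, 2 and 4. The median difference of the 8 was 0.14, -0.38 and -0.34 on these days, with 6, 1 and 0 genes above 0. Against the mean of both other groups on day 4 limma called 0 of the 8 (background 0.194%), with Fcgr2b at 2.25 (adjusted p = 0.0709) and Syk at 1.10 (adjusted p = 0.0617) and 6 at an unadjusted p under 0.05, whereas voom called 5 (background 1.29%).

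The macrophage markers moved with these differences. Their median difference on day 4 was 0.96 for Per1-/- against WT and 1.44 against the group labelled Per2-/-, with 0 of 12 called by limma in each and 5 and 10 of 12 at an unadjusted p under 0.05. With the marker mean as a term in the limma fit, no gene of the 8 was called between Per1-/- and either group on any day, and on day 4 1 of 8 against WT and 4 of 8 against the group labelled Per2-/- had an unadjusted p under 0.05. Limma had called only Syk without the term, so the absence of calls with it cannot tell what the marker level accounts for. The median difference of the 8 on day 4 was 0.85 against WT without the term and 0.25 with it. Against the group labelled Per2-/- it was 1.28 and 0.24. With the term, Fcgr2b was at 0.95 against WT on day 4 (adjusted p = 0.813), and Syk at 0.56 against the group labelled Per2-/- (adjusted p = 0.251).

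**Figure D5:**
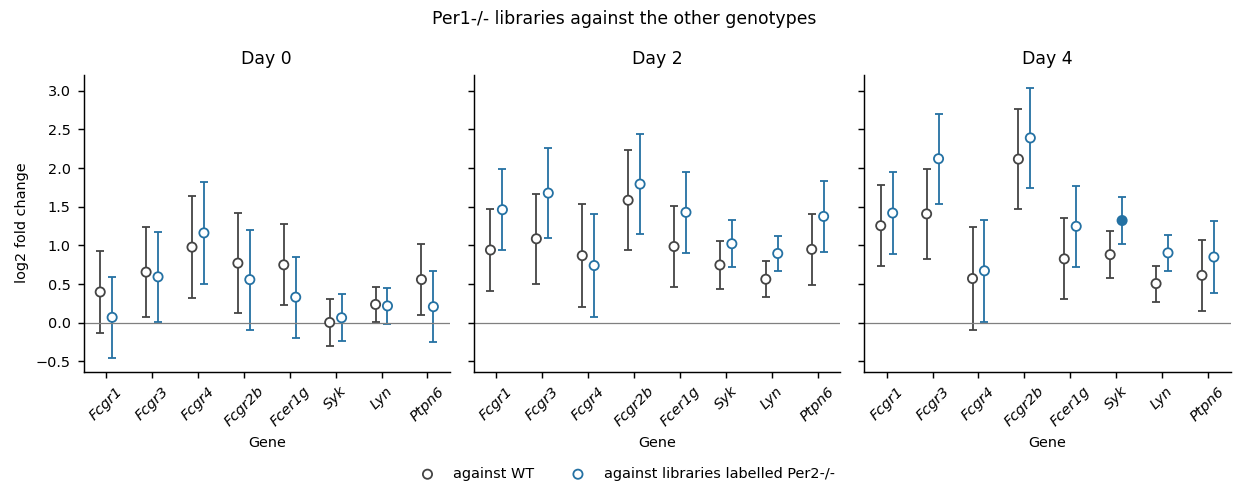
log2 fold change of Per1-/- libraries against WT and against the libraries labelled Per2-/- on each day for the 8 tested genes; error bars are the standard error from limma, filled points were called. The values are above 0 for all 8 genes on all 3 days, and only Syk on day 4 against the libraries labelled Per2-/- was called (1.32). On day 0 this direction rests on Per1-/- replicate 3. Without it all genes but Fcgr4 were under 0 against both groups.

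Further genes of the path were counted from lists written with earlier results of these data known. Of 36 genes of Fc receptor signalling, 17 were called higher and 7 lower on day 4 than on day 0 in the mean of the genotypes (backgrounds as above), with a median change of 0.53. Called higher were the adaptor Lcp2 (SLP-76) at 2.54, the kinase subunit Pik3cg at 2.30, the actin regulator Was at 1.91 and the exchange factor Vav1 at 1.90. Called lower were the phospholipase Pla2g4a at -2.15 and the actin regulators Cfl1 at -1.08 and Arpc1b at -0.95. Of the inhibitory phosphatases and ITIM receptors 13 of 18 were tested, and 10 were called higher, among them Clec4a2 at 3.24, Pirb at 3.04, Cd33 at 2.86, Clec12a at 2.64 and the phosphatase Inpp5d (SHIP-1) at 1.63, while the adaptor Dok1 was called lower at -2.65. Of other ITAM adaptors and their receptors 7 of 12 were tested and 5 called higher, with Clec4n at 2.26, Tyrobp (DAP12) at 2.15 and Trem2 at 1.39. Of other Src-family kinases and their regulators 10 of 12 were tested, with 3 called higher, among them Ptprc at 2.17 and Pag1 at 1.72, and 1 lower (Src at -0.89).

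Between genotypes on day 4 these lists held few calls. The leukocyte kinase subunit Pik3cd was called higher in Per1-/- cells than in the libraries labelled Per2-/- by 1.01 (SE 0.188, adjusted p = 0.0151) and was at 0.71 against WT (adjusted p = 0.415). In the list of other Fc receptors, of which 3 of 13 were tested, Fcrls was called higher by 2.48 (SE 0.523, adjusted p = 0.0262) and was at 1.68 against WT (adjusted p = 0.547).

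The patterns most like those of the 8 genes, by Pearson's r of log2(FPKM + 0.1) over the 27 libraries, which share depth and composition, were found among the other tested genes. Fcer1g was nearest to Arhgap45 (0.987), Lcp1 (0.985) and Dock2 (0.982), Ptpn6 to Cyth4 (0.986), Was (0.983) and Nfam1 (0.981), and Fcgr1 to Cd93 (0.966), Nrros (0.964) and C1qc (0.962). Fcgr3 was nearest to Stab1 (0.97), Ncf1 (0.949) and Plek (0.945), and Fcgr2b to Abcc3 (0.924), Cd14 (0.875) and Msr1 (0.875). For the kinases the nearest genes were less close, Ehd4 (0.916), Blvra (0.908) and Abhd12 (0.902) for Syk and Gcnt1 (0.894), Fli1 (0.886) and Efhd2 (0.882) for Lyn. Fcgr4, with the fewest fragments, had Npy (0.78), Pstpip1 (0.747) and Cd200r4 (0.727). Among the 8 genes themselves r was highest for Fcer1g with Ptpn6 (0.97) and lowest for Fcgr4 with Ptpn6 (0.42). Within groups, after the group means were removed, Fcer1g with Ptpn6 stayed at 0.968 and Fcgr3 with Fcgr2b was at 0.935, whereas Syk with Lyn was at 0.448 against 0.819 over all libraries. Fcgr3 and Fcgr2b share coding sequence, and whether fragments placed on the wrong gene enter their r was not tested.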

How the data were processed

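The 27 libraries were grouped by the genotype and day in their labels, 3 per group. Per the labels, the authors prepared libraries from total RNA, aligned reads to mm10 with HISAT2 2.0.5 and counted them with featureCounts 1.5.0-p3. Values were used as the authors deposited them, FPKM per gene from reads counted on exons. With the deposited gene lengths, all values gave whole fragments (tolerance 0.05), 15815013 to 24264097 per library. The kit is not directional, so strand cannot be told.

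log2(FPKM + 0.1) of 14932 genes, those averaging 0.5 FPKM or more over 27 libraries, was fitted in 9 groups with limma 3.58.1 (lmFit, contrasts.fit and eBayes with a trend) in R 4.3.3. A call needed a Benjamini-Hochberg adjusted p no higher than 0.05 and a log2 fold change no smaller than 0.58 in either direction. The study's own count model was not used, since FPKM are deposited, and voom on the recovered fragments was an alternative. Members and gene lists were chosen with earlier results of these data known. Named genes are the 9 members, Per1, Per2, Itgam, Adgre1, Csf1r, at most 5 called genes with the largest change per list and family of comparisons, and the 3 genes most like each member; Inpp5d, Cfl1 and Arpc1b were named after their values were seen. Alternatives were other pseudocounts, filters, the groups compared only, FPKM rescaled to a common sum, voom, a replicate block, a macrophage marker covariate, and each library left out. On simulated data with 14932 genes, for Per1-/- against WT on day 2, 121 of 200 genes changed by a log2 fold of 1 were recovered with 5 false calls, and 181 of 200 changed by 2 with 1 false call. The changed genes were drawn at random from all tested genes and simulated independently, so these shares need not hold for the 8 genes. In the real comparison 1 gene of all tested was called. Sequences came from RefSeq promoters (GRCm38.p6; 8 of 9 genes matched) and the GRCm38 transcripts, compared with Biopython 1.88 in Python 3.11.15.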

Additional observations from a re-analysis of the deposited data

How the results depend on the processing

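Counts of calls among the 8 tested genes are summed over the comparisons of each family. They are given without the calls of all genes, which also move with the setting. For Per1-/- against the group labelled Per2-/- on day 4 limma called 83 of all tested genes. With FPKM rescaled it called 9 higher and 10 lower. A larger or smaller count therefore does not set the 8 apart from other genes. Per1-/- against WT, the group labelled Per2-/- against WT, and the differences between genotypes in the change from day 0 had 0 calls under every alternative and in every fit with 1 library left out, at p-values adjusted over all genes.

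For Per1-/- against the group labelled Per2-/- the count of 1 (Syk, day 4) became 3 with a pseudocount of 1, 2 with only the groups compared, 4 with voom, and 0 with a pseudocount of 0.01, all genes above 0, FPKM rescaled or the marker covariate, and it ranged from 0 to 4 with 1 library left out (4 without Per1-/- day 0 replicate 3). For Per1-/- against the mean of both it was 0 and became 2 with a pseudocount of 1, 4 with only the groups compared and 5 with voom, and 0 to 3 with 1 library left out. Over days in WT the count of 3 became 5 with all genes above 0, 7 with only the groups compared, 6 with FPKM rescaled and 9 with the covariate (all 9 lower, where the 3 were all higher), and 2 to 6 with 1 library left out. In Per1-/- the count of 7, all higher, became 4 with only the groups compared and 3 to 10 with 1 left out; with the covariate it was again 7, but all lower. In the group labelled Per2-/- the count of 4 (2 higher and 2 lower) became 11 with the covariate (2 higher and 9 lower) and 1 to 7 with 1 left out. In the mean of the genotypes the count of 8, all higher, ranged from 8 to 11 with 1 left out. The number stayed within 1.5 times under all alternatives, but with the covariate its 11 calls were all lower.

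Same-numbered libraries did not deviate together throughout (r within a genotype over days -0.017 to 0.294, 14 of 27 pairs over 0.1; within a day between genotypes -0.256 to 0.192, 3 of 27 over 0.1), and the numbers were taken as shared numbers only, except in the 3 of 9 comparisons of days within a genotype where all 3 pairs were over 0.1 (Per1-/- between days 0 and 2 and between days 2 and 4, WT between days 2 and 4), whose paired values stand beside the results. With the replicate block the counts became 5 for Per1-/- against the group labelled Per2-/-, 4 against the mean, 6 in WT and 7 in the group labelled Per2-/-. The calls of all genes with the block are not set beside these sums.

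Directions reversed mainly with the macrophage covariate, in 28 of 33 reversals. With it, on day 2, Per1-/- against WT and against the group labelled Per2-/- were -0.04 and -0.021 for Fcgr1, -0.042 and -0.028 for Fcgr3, -0.14 and -0.78 for Fcgr4 and -0.05 and -0.14 for Fcer1g. On day 4 they were -0.42 and -0.76 for Fcgr4, -0.19 and -0.23 for Fcer1g and -0.24 and -0.39 for Ptpn6. Changes from day 0 in the mean of the genotypes became -0.077 (day 2) and -0.42 (day 4) for Fcgr1, -0.98 and -1.57 for Fcgr3, -0.40 and -0.34 for Fcer1g, and by day 4 -0.91 for Syk and -0.50 for Lyn. By day 4 in WT, Fcgr1 became -0.69 and Fcer1g -0.24, and in Per1-/-, Fcgr1 -0.16, Fcgr3 -1.35, Fcer1g -0.50 and Syk -0.46. The cause was not tested. Of the mean changes by day 4 near 0, Fcgr4 became 0.063 with a pseudocount of 0.01, 0.23 with FPKM rescaled and 0.079 with voom, and Fcgr2b 0.075 with FPKM rescaled; by day 2 Lyn became 0.026 with FPKM rescaled. With 1 library left out, Fcgr3 by day 2 ranged from -0.15 to 0.34, Fcgr4 by day 4 from -0.25 to 0.16 and Fcgr2b by day 4 from -0.46 to 0.086. Of 573 fits of single results, 495 kept direction and call.

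The ratio of activating receptors to Fcgr2b moved in all 9 groups when Fcgr3 was left out of the sum and in 1 when Fcgr1 was. Depth limits Fcgr4 (2 to 37 fragments) and Fgr (0 to 20).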

Other observations

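The list of other Fc receptors held 3 tested genes of 13, and all 3 were called higher on day 4 than on day 0 in the mean of the genotypes, where 24.4% of all tested genes were. Fcgrt, the neonatal Fc receptor that recycles IgG inside cells, was higher by 2.45 (SE 0.245, adjusted p = 8.66e-09) on the log2 scale. Trim21, the cytosolic receptor of antibody-bound virus, was higher by 1.69 (SE 0.125, adjusted p = 7.4e-11), and Fcrls by 1.72 (SE 0.302, adjusted p = 2.53e-05).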
